A study of Mus musculus with 4 samples.

Results

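The loss of 1 functional copy of Sf3b1 was compared between 2 settings in hematopoietic stem and progenitor cells, and for each gene the difference of the genotype differences was taken. The contrast was the difference Sf3b1+/- minus wild type in transplanted cells, minus the same difference in native cells, on the log2 scale. A contrast above 0 means that Sf3b1+/- cells stood higher against wild type after transplantation than before it. It was computed for the 12175 genes, of 20886 with a gene symbol, whose probe was well above background on all 4 arrays, the call of the scanner software for a spot brighter than its surroundings. All 4 arrays measured LSK cells of strain C57BL/6, the lineage-negative, Sca-1-positive, c-Kit-positive marrow fraction, isolated by flow cytometry. The native arrays held LSK cells of wild-type or Sf3b1+/- mice at 20 weeks of age. The transplanted arrays held donor (CD45.2+) LSK cells of either genotype, taken 9 months after whole marrow had been given to lethally irradiated CD45.1+ hosts that were not said to carry the mutation. The 2 settings therefore differ at once in the host, in irradiation of that host, in time and in the gate for donor cells, and these cannot be told apart. The labels state 4 mice for the native and 5 recipients for the transplanted collection, and the sources used here do not say how many mice stand behind an array.

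Sf3b1 encodes the largest protein of SF3b, a component of the U2 particle that recognises the branch site of introns, and heterozygous mice keep a working copy. Hematopoietic stem cells make up a small part of the LSK fraction and the rest are multipotent progenitors, some already primed towards lymphoid, myeloid or megakaryocyte fates. After transplantation the donor stem cells rebuild the blood of the host, a process that demands many divisions. The contrast asks whether the effect of the genotype in the marrow where the cells arose is also seen once they have been moved to another host. The design text gives an effect of the marrow environment as the reason for the transplants.

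Each group had 1 array, so no difference has a replicate check and no p-value is given. Values are printed as scaled signal, the processed signal after each array was shifted to the same 75th percentile of its detected probes, where that percentile is 1990 units. Where 4 values follow each other, the native pair comes first and the transplanted pair second, each with wild type before Sf3b1+/-. Between 47.7% and 51.5% of spots were well above background, the highest share on the Sf3b1+/- transplanted array, and no spot was saturated. Correlations between arrays over the 12175 genes lay between 0.981 and 0.994. Replicate spots of a probe predict an SD of 0.146 for a contrast from spot noise alone, which leaves out the spread between mice, sorts and labelling reactions. Relative to the spike-in RNAs the median contrast of all genes was 0.38 higher than under the scaling used here, so that values describe a change relative to the other genes.

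The targeted gene was measured first. Sf3b1 gave scaled signals of 436, 328, 273 and 253 units, a genotype difference of -0.41 in native and of -0.11 in transplanted cells. Its contrast of 0.30 was the size of the spread over all genes, whose robust SD was 0.298. The Sf3b1+/- arrays were the lower ones in both settings, but the transplanted pair differed by less than the spread of that difference over all genes (robust SD 0.367). The sources used here do not say whether the probe lies in the disrupted part of the gene. The LSK markers Kit (6717, 7323, 4993 and 5619 units), Ly6a, which encodes Sca-1 (2096, 1825, 2386 and 3624 units), and Cd34 were well above background on all 4 arrays. Cd8a of T cells, Pax5 of B cells and Cdh5 of endothelium were above it on none. Of the Y-linked genes Uty, Eif2s3y and Ddx3y were detected on all 4 arrays, with contrasts of -1.05, -0.25 and -0.17, while Kdm5d and the X-linked Xist were detected on none.

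Most genes had much the same genotype difference in both settings, and large differences were more frequent in the transplanted pair. Sf3b1+/- and wild-type cells were at least 2-fold apart for 103 genes in native cells (0.846% of the genes compared) and for 275 genes in transplanted cells (2.26%). The contrast reached 2-fold, here named a call, for 348 genes (2.86%). It was higher for 244 of them (2.0%), such as Ramp2, Evc2, Plagl1 and Fkbp10, and lower for 104 (0.854%), such as Lrmda, Slc15a2, Tnfrsf17 and Ikzf3. The quartiles of all contrasts were -0.19 and 0.21, and 50.5% of genes had a contrast above 0. Under spike-in scaling 726 genes were higher and 28 lower, and with no filter on dim probes 1161 and 1040.

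**Figure D1:**
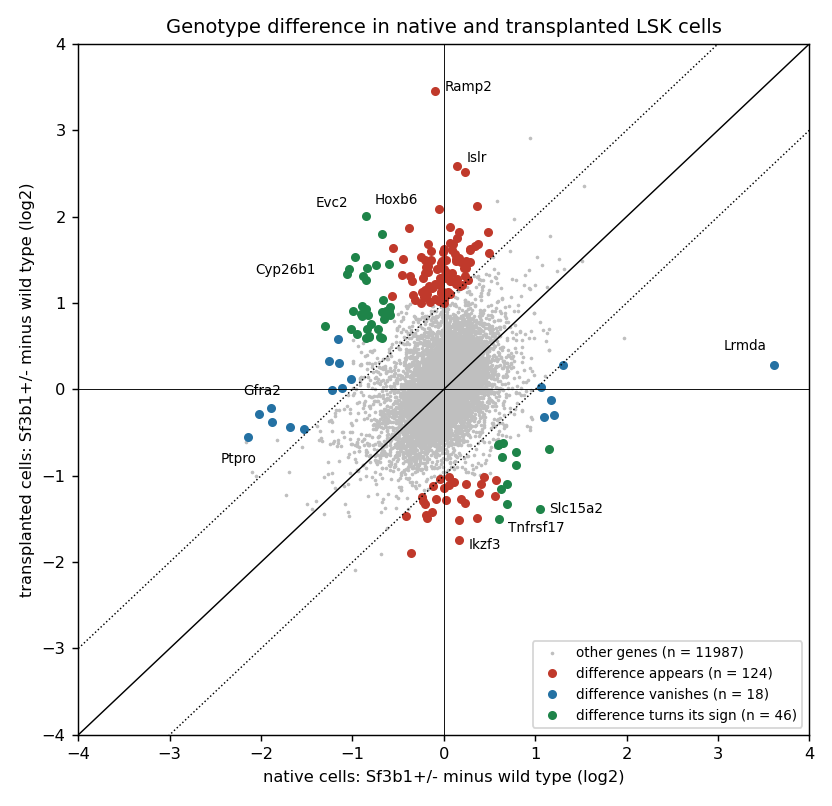
Genotype difference (Sf3b1+/- minus wild type, log2) of each of the 12175 genes in native cells (horizontal axis) against transplanted cells (vertical axis); 1 point is 1 gene, the solid diagonal marks equal differences and the dotted lines a contrast of 2-fold. The 124 genes whose difference appears (red) lie above and below the centre, the 18 whose difference vanishes (blue) to its left and right, and the 46 whose difference turns its sign (green) in the upper left and lower right corners.

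The size of the contrast went with the signal of the probe. Ranked by mean signal and divided evenly, the 4058 dimmest genes (up to 315 units) had 6.41% that reached 2-fold, 177 higher and 83 lower. For the 4058 genes in the middle it was 1.36%, 38 higher and 17 lower, and for the 4059 brightest 0.813%, 29 higher and 4 lower. The robust SD of the contrast was 0.447, 0.287 and 0.217 in these sets. Signals are therefore printed beside the contrasts of named genes. Bright genes with a contrast of at least 2-fold included the heat shock genes Hspa1a and Hspb1, and Vwf, Nupr1 and Cavin2.

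**Figure D2:**
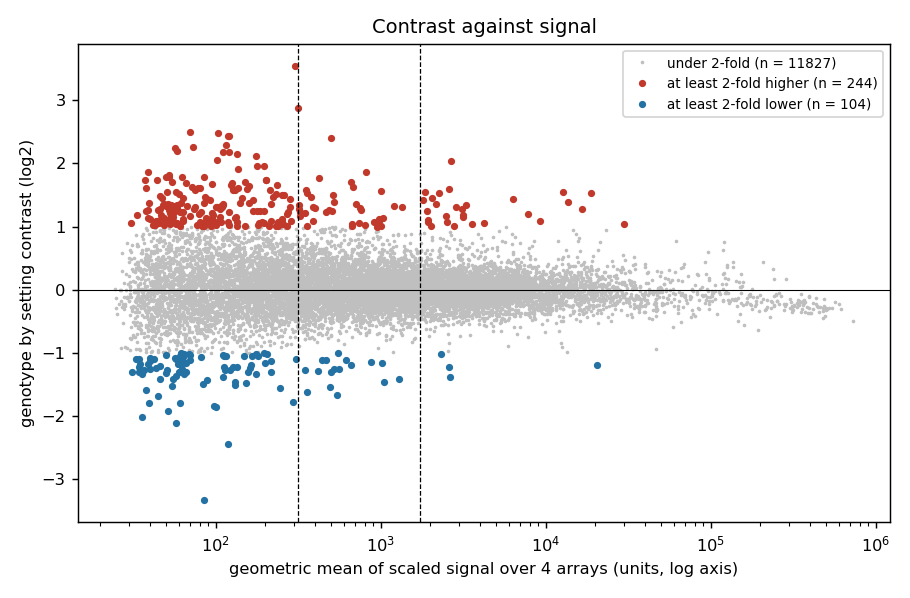
Contrast (log2, vertical axis) of each gene against the geometric mean of its scaled signal over the 4 arrays (units, log axis); dashed lines separate the dim, middle and bright sets of genes. The 244 genes at least 2-fold higher (red) and the 104 lower (blue) crowd on the left, where 6.41% of genes were called, against 0.813% on the right.

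A genotype difference appeared with transplantation for 124 genes (1.02% of those compared), that is, it was under 1.5-fold in native and at least 2-fold in transplanted cells with a contrast of at least 2-fold. In 97 of them (0.797%) Sf3b1+/- transplanted cells were the higher ones and in 27 (0.222%) the lower ones. The largest contrast was that of Ramp2, whose product pairs with the calcitonin receptor-like receptor to form a receptor for the peptide adrenomedullin. Ramp2 had scaled signals of 137, 129, 208 and 2272 units. The native arrays differed by -0.09, while Sf3b1+/- transplanted cells stood 3.45 log2 units above their wild-type counterpart, a contrast of 3.54. After a normexp background correction, which pulls dim values together, it was 3.13.

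Hoxb6, a homeobox transcription factor, gave 78.9, 75.9, 112 and 479 units, so that 3 arrays lay close together and Sf3b1+/- transplanted cells alone were high (contrast 2.15). Fap, a cell surface serine protease best known from activated fibroblasts, followed the same form with 92.3, 62.9, 91.7 and 284.5 units (contrast 2.19), as did Clip3, a microtubule-linker protein, with 64.1, 49.3, 49.1 and 180.0 units (contrast 2.25). In these genes the native arrays and the wild-type transplanted array were within 1.5-fold of each other. For Arc, an activity-induced immediate early gene, the 4 values were 98.3, 115, 51.9 and 297 units, and for Islr, a leucine-rich repeat protein of the immunoglobulin superfamily, 141, 157, 38.7 and 232 units. Here wild-type cells were also lower after transplantation, and both arrays of the transplanted pair added to the contrasts of 2.29 and 2.44. With normexp the contrasts of Islr, Arc, Clip3, Fap and Hoxb6 were 1.23, 1.60, 1.08, 1.51 and 1.53.

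In the opposite direction stood Ikzf3, which encodes Aiolos, a lymphoid transcription factor. It gave 41.1, 46.2, 112 and 33.2 units, so that the wild-type transplanted array was the high one and the other 3 were alike (contrast -1.92). Tspo2, a translocator protein of erythroid cells, read 352, 522, 436 and 211 units and was low only on the Sf3b1+/- transplanted array (contrast -1.62). Slc27a2, a fatty acid transporter and acyl-CoA synthetase, gave 147, 189, 102 and 36.4 units (contrast -1.86). The cell adhesion gene Dscam, Plekhh1 and the orphan receptor Gpr37l1 had contrasts of -1.79, -1.67 and -1.58 from signals of 27.5 to 90.2 units. All 3 were under 2-fold with normexp, at -0.90, -0.73 and -0.74.

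**Figure D3:**
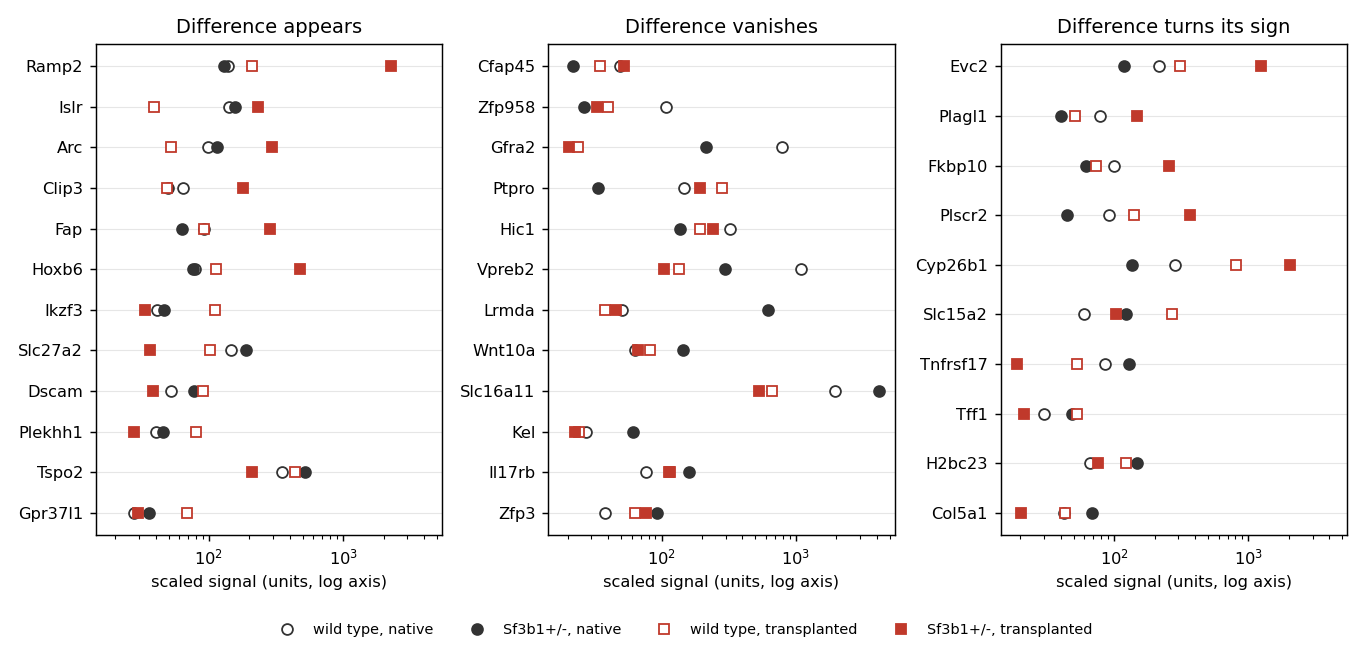
Scaled signal (units, log axis) of the named genes on each of the 4 arrays; circles are native and squares transplanted cells, open for wild type and filled for Sf3b1+/-. In the left panel the circles of a gene lie together and the squares apart, in the middle panel the reverse holds, and in the right panel both pairs are apart in opposite order.

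A genotype difference vanished for 18 genes (0.148%), being at least 2-fold in native and under 1.5-fold in transplanted cells with a contrast of at least 2-fold. In 12 of them (0.0986%) Sf3b1+/- native cells had been the lower ones, among these Gfra2, Vpreb2, Fosl2 and Trib3, and in 6 (0.0493%) the higher ones, led by Lrmda. Lrmda, a leucine-rich repeat gene linked to melanocyte differentiation, gave 50.4, 616, 37.7 and 45.8 units, high on the Sf3b1+/- native array alone, a contrast of -3.33. Slc16a11, of the monocarboxylate transporter family, read 1943, 4165, 664 and 533 units (contrast -1.42), with both transplanted arrays below the native ones. Gfra2, a receptor of the neurotrophic factor neurturin, gave 790, 213, 23.7 and 20.3 units. Its genotype difference of -1.89 in native cells stood against -0.22 in transplanted cells, where both signals were near the lowest of any detected probe (16.3 to 23.9 units).

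Vpreb2 encodes a part of the surrogate light chain of the pre-B cell receptor. Its signals of 1099, 298, 134.5 and 103.5 units were lower in both transplanted groups (contrast 1.51). Ptpro, a receptor tyrosine phosphatase, instead gave 148, 33.5, 284 and 193 units, low only on the Sf3b1+/- native array (contrast 1.59). Hic1, a transcriptional repressor, read 326, 137, 192 and 241 units (contrast 1.58). Zfp958 (107.2, 26.4, 40.0 and 32.9 units) and Cfap45 (49.2, 22.1, 34.8 and 52.1 units), a cilia-associated gene, both had contrasts of 1.74. With normexp the contrasts of Zfp958, Ptpro and Cfap45 were 0.05, 0.38 and 0.52, so that these 3 calls were lost. The other named genes higher in Sf3b1+/- native cells were Wnt10a, a Wnt ligand (contrast -1.50), Kel, the Kell blood group protease (-1.30), Il17rb, a subunit of the interleukin-25 receptor (-1.04), and Zfp3 (-1.02). With normexp 5 of the 18 genes kept this class, Fosl2, Gfra2, Lrmda, Slc16a11 and Vpreb2.

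The genotype difference turned its sign for 46 genes (0.378%), being at least 1.5-fold in both settings in opposite directions. For 34 of them (0.279%) Sf3b1+/- cells were lower than wild type in native and higher in transplanted cells, and for 12 (0.0986%) the order was the reverse. The first set held Cyp26b1, which breaks down retinoic acid, and Rarb, a retinoic acid receptor, together with Id3, Vcam1, Jam3, Hspa1a and Hspb1. Cyp26b1 gave 282, 135, 810 and 2047 units. Both genotypes were higher after transplantation, and Sf3b1+/- cells went from the lower to the higher place of the pair (differences -1.06 and 1.34, contrast 2.40). Rarb read 106, 63.3, 109 and 296 units (differences -0.74 and 1.44, contrast 2.18).

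Evc2, a ciliary protein of the Hedgehog pathway, had the largest contrast of this class, 2.87, from 214, 118, 309 and 1247 units. Fkbp10, a prolyl isomerase of the endoplasmic reticulum that acts on collagen, gave 99.2, 62.1, 73.3 and 256 units (contrast 2.48). Its neighbour P3h4 and the collagen chaperone Serpinh1, both picked out here after their values were seen, turned in the same direction with contrasts of 1.58 and 2.06. Plscr2, a phospholipid scramblase gene, read 91.4, 44.5, 141 and 370 units (contrast 2.43). Plagl1, an imprinted zinc finger gene, gave 78.4, 40.1, 50.9 and 147 units (contrast 2.50), but of its 3 other probes 1 gave 2.11 and the others -0.08 and -0.14. Averaged over its probes, the contrast of Plagl1 was 1.1.

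Among the genes that turned the other way, Slc15a2, a transporter of short peptides, gave 59.1, 123, 267 and 103 units, differences of 1.05 and -1.38 and a contrast of -2.43. Tnfrsf17, the receptor BCMA of plasma cells, read 85.4, 129.5, 53.1 and 18.7 units (contrast -2.10). Tff1, a trefoil peptide, H2bc23, a histone H2B gene, and Col5a1, a chain of collagen V, had contrasts of -2.02, -1.84 and -1.78 from signals of 20.1 to 147 units. A second probe of Tff1 gave -0.52. Car1, a carbonic anhydrase of red cell progenitors, was among these genes with a contrast of -1.67, and its other probe gave -1.92. With normexp 8 of the 46 genes still met both limits, among them Car1, Cyp26b1, Hspb1, Id3, Pde2a, Plagl1 and Wdfy1. The 2 other probes of Wdfy1 gave contrasts of -0.61 and -0.16, against 1.42 for the one used.

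Of the 348 genes with a contrast of at least 2-fold, 160 fell in none of these classes. In 150 of these the genotype differences had opposite signs and were both under 2-fold. For 83 of the 348 genes the contrast came from 1 array, the other 3 lying within 1.5-fold of each other. The Sf3b1+/- transplanted array was the high one for 44 of these genes, among them Hoxb6, Fap, Clip3, Tek, Tcf15 and Ecscr, and the low one for 9, among them Tspo2. The wild-type transplanted array was high for 7, namely Ikzf3, Gpr37l1, Camp, Hrc, Krtap19-5, Chil3 and S100a8, and low for 11, among them the receptor tyrosine kinase gene Axl. Sf3b1+/- native cells stood apart for 3 genes upwards (Lrmda, Wnt10a and Kel) and for 5 downwards (Cfap45, Usb1, Trib3, Rgcc and Wfikkn1). Wild-type native cells did so for 3 upwards (Fbxw22, Wnt5b and Adm) and for Zfp3 downwards.

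A gene with several probes allows a check of the same RNA at another place. Among the genes called, 54 other probes of 47 genes were measured, of which 43 (79.6%) had a contrast of the same sign and 20 also reached 2-fold. Over all genes 64.1% of 3649 other probes had the same sign and 2.08% reached 2-fold. In the appearing class 17 of 18 other probes had the same sign and 10 reached 2-fold, in the turning class 10 of 14 and 4. Sult1a1, a sulfotransferase gene, gave 1.62 and 1.88 from its 2 probes, and Camp, the neutrophil cathelicidin, -1.46 and -1.45. Probes disagreed in size for Hmox1 (1.33 and 0.59), and in sign for the AP-1 gene Fosl2 (1.24 and -0.59), the only vanishing gene with another probe measured.

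Neighbouring genes were called together in a few places. Of the 244 higher genes 18 (7.38%) had another called higher gene next to them, against 3.97% of all genes, and of the 104 lower genes 2 (1.92%, against 1.69%). The pairs of higher genes included Hoxb6 with Hoxb5, P3h4 with Fkbp10, Igll1 with Vpreb1, Gstm7 with Gstm3, Plscr1 with Plscr2, Klrb1a with Klrb1c, Il17rc with Creld1 and Slc25a20 with Prkar2a. Members of Gstm, Plscr, Klrb1 and Vpreb are similar in sequence, and a probe may read more than 1 of them.

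Genes of hematopoietic stem cells were largely alike between genotypes in native cells and higher in Sf3b1+/- transplanted cells. Of 28 measured genes of this list 8 had a contrast at least 2-fold higher and none lower, beside 2.0% and 0.854% of all genes. A contrast above 0 was found for 24 of them, against 50.5% of all genes. The median difference of the list was 0.04 before and 0.73 after transplantation, with a median contrast of 0.65, against a median of 0.00 for all genes. In transplanted cells 18 of the 28 were at least 1.5-fold higher in Sf3b1+/- cells, against 6.64% of all genes. Slamf1, the stem cell surface receptor CD150, gave 83.0, 88.6, 207 and 525 units (differences 0.09 and 1.34). Tie1, a receptor tyrosine kinase, read 449, 457, 340 and 828 units (contrast 1.26), and its relative Tek, the angiopoietin receptor, 35.9, 37.7, 38.1 and 90.9 units (contrast 1.18). Ndn, an imprinted gene that restrains division, had differences of -0.83 and 0.87. In each of these the Sf3b1+/- transplanted array was the highest of the 4. In bulk RNA a larger share of cells of a type and more RNA per cell cannot be told apart.

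The other members did not all share this form. Procr, the endothelial protein C receptor that marks stem cells, gave 2133, 1802, 2444 and 4363 units (contrast 1.08). The transcription factor genes Meis1 (0.10) and Hlf (-0.27) and the receptor gene Kit (0.05) had small contrasts. Mycn (1.24 and 1.37) and Gfi1b (0.71 and 0.96) were higher in Sf3b1+/- cells in both settings and so have contrasts of 0.13 and 0.25. With normexp 4 of the 28 genes reached 2-fold and the median contrast was 0.49. Summed over the list, signals were 90596, 88554, 85199 and 94222 units.

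Genes known to be higher in old than in young stem cells showed the same form more fully. This list, like the others, was chosen with earlier results of these data known, so its counts are no independent support. All 20 that were measured had a contrast above 0 (50.5% of all genes), 9 of them at least 2-fold higher (2.0% of all genes). Their median genotype differences were 0.08 before and 1.11 after transplantation (median contrast 0.97). Vwf, the von Willebrand factor of platelets and platelet-biased stem cells, gave 1797, 2505, 2728 and 9656 units (contrast 1.34). Nupr1, a stress-induced chromatin protein, read 765, 833, 3073 and 9147 units (contrast 1.45), and Sult1a1 265, 264, 1000 and 3077 units (contrast 1.62). For these genes wild-type cells were also higher in the transplanted setting, and Sf3b1+/- cells more so. Cavin2, a caveolar coat protein (contrast 1.29), Jam2, a junctional adhesion molecule (1.37), and Selp, which encodes P-selectin (1.27), were also called. Lmna (0.35), Alcam (0.22) and Oxr1 (0.16) were not. Summed over the 20 genes, the native arrays gave 34290.5 units for wild type and 33476 for Sf3b1+/-, and the transplanted arrays 55049 and 102164. With normexp 9 of them again reached 2-fold. Slamf1 belongs to this list and to that of stem cell genes.

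Platelet and megakaryocyte genes were mostly higher in Sf3b1+/- cells in both settings, with median differences of 0.45 before and 0.84 after transplantation. Already in native cells 7 of the 18 were at least 1.5-fold higher in Sf3b1+/- cells, against 1.83% of all genes, and 3 were at least 1.5-fold lower, Plek (-0.68), Selp (-0.70) and Thbs1 (-0.59). Plek and Thbs1 were also lower after transplantation (-0.27 and -0.64). Of 18 measured genes 3 had a contrast at least 2-fold higher, Vwf and Selp among them, and none lower. Over all genes these shares were 2.0% and 0.854%. Itga2b, the integrin chain of platelets, gave 676, 911, 806 and 1943 units (contrast 0.84). The platelet chemokines differed little between settings: Pf4 was 0.68 and 0.78 higher and Ppbp 1.51 and 1.49 higher in Sf3b1+/- cells. The glycoprotein genes Gp1ba (contrast 0.06), Gp5 (0.44) and Gp9 (0.66) lay between these. The summed signal of the list was 63643, 73882, 65617 and 99750 units. Vwf and Selp are also on the list of genes higher in old stem cells.

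**Figure D4:**
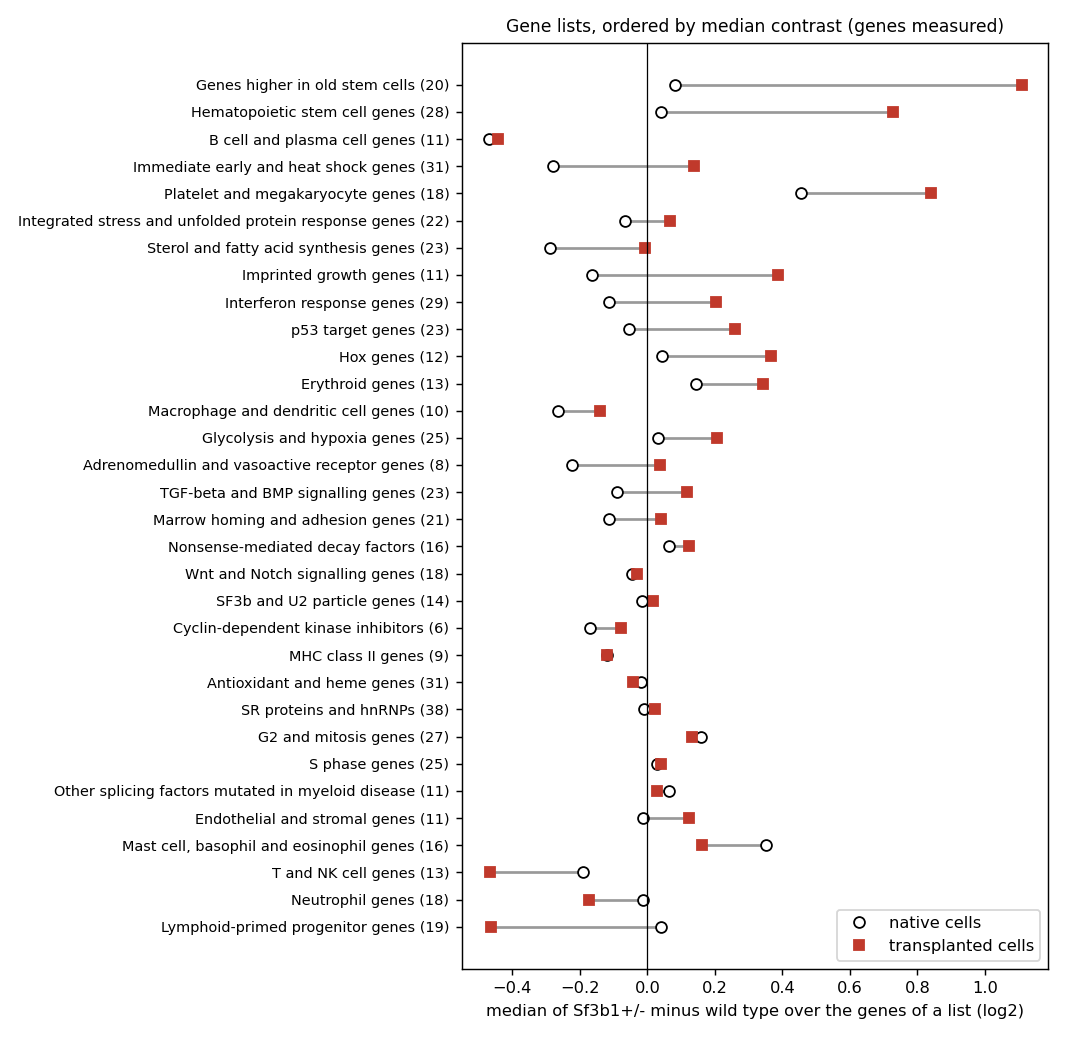
Median genotype difference (Sf3b1+/- minus wild type, log2) over the measured genes of each list, in native (open circles) and transplanted cells (red squares), ordered by median contrast; the number of genes is in brackets. Genes higher in old stem cells and stem cell genes have the longest lines to the right (medians 1.11 and 0.73 in transplanted cells), and lymphoid-primed genes the longest to the left (-0.46).

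Genes of lymphoid-primed progenitors stood lower. The median genotype difference was 0.04 before and -0.46 after transplantation (median contrast -0.57). A contrast at least 2-fold lower was found for 4 of 19 and one 2-fold higher for none, beside 0.854% and 2.0% of all genes. Of the 19, 2 had a contrast above 0, against 50.5% of all genes. In transplanted cells 7 of the 19 were at least 1.5-fold lower in Sf3b1+/- cells, against 5.40% of all genes. Il7r, the interleukin-7 receptor, gave 228.5, 198, 352 and 140 units (contrast -1.12), and Ccr9, a chemokine receptor of thymus-seeding cells, 110, 151, 155 and 88.0 units (contrast -1.28). Il12a, the p35 chain of interleukin-12, turned its sign (0.61 and -0.64). The bright genes were apart by less: Dntt, the terminal transferase of antigen receptor rearrangement, read 58224, 56454, 53086 and 26765 units (contrast -0.94), and Flt3, a cytokine receptor lost on stem cells, 9130, 9979, 6000 and 4350 units (contrast -0.59). Satb1, Rag2 and Ikzf1 had contrasts of -0.59, -0.59 and -0.57. Blnk, in contrast, was lower in Sf3b1+/- cells in both settings (-1.19 and -1.14). The median contrast stayed below 0 under spike-in scaling, at -0.20, where 1 gene reached 2-fold, and with normexp 1 gene did. The summed signal of the list was 140051, 134494, 145597 and 102679 units, lowest on the Sf3b1+/- transplanted array.

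Surrogate light chain genes were lower in Sf3b1+/- than in wild-type cells, by more in the native pair, and were lower in both transplanted groups. Vpreb1, Vpreb3 and Igll1, with Vpreb2 the genes of the surrogate light chain or related to it, had native genotype differences of -2.17, -2.05 and -2.10, and differences of -0.61, -1.0 and -0.96 after transplantation. Vpreb1 gave 9868, 2198.5, 929 and 607 units, so that both transplanted groups lay below both native ones. Igll1 gave 1179, 274, 42.4 and 21.8 units, the last near the lowest signals of detected probes (16.3 to 23.9 units). The difference of Igll1 after transplantation is limited by that. These 4 genes account for all contrasts of at least 2-fold among the 11 measured (4 higher, none lower), beside 2.86% of all genes. The list medians were -0.47 and -0.44. The defining B cell genes Ebf1 (219, 90.9, 24.0 and 8.86 units) and Cd79a (65.6, 27.0, 16.3 and 20.2 units) were well above background on the native arrays only, and Pax5 on none. The summed signal of the 11 genes was 49437, 34988, 25286 and 21864 units. The part of B lineage cells in these contrasts was not tested. Jchain, an immunoglobulin joining chain gene, had a contrast of -0.91.

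Contrasts of other blood cell genes were smaller or went both ways. Among 18 neutrophil genes, 3 had a contrast at least 2-fold lower and none higher, beside 0.854% and 2.0% of all genes. S100a8 gave 2285, 1939, 3918 and 1649 units (contrast -1.01), Camp 792, 900, 2015 and 834 units (-1.46) and Chil3 188, 171, 431 and 160.5 units (-1.29), high in each case on the wild-type transplanted array alone. The genes of early granules, Mpo (0.24), Elane (0.38), Prtn3 (0.48) and Ctsg (-0.04), had contrasts near or above 0. The list median was -0.33, or 0.04 under spike-in scaling, where that of all genes was 0.38. Summed signals of the list were 338596, 300350, 380051 and 340991 units. Among 13 T and NK cell genes (median contrast -0.18, or 0.20 under the spike-in scaling that put all genes at a median of 0.38) Klrb1c, the NK cell receptor NK1.1, was higher (58.2, 44.9, 199 and 493 units, contrast 1.68) and Gzma, a granzyme, lower (77.5, 103, 280 and 131 units, contrast -1.50). Cd3e, a chain of the T cell receptor complex, was detected on all 4 arrays with a contrast of -0.03.

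The 10 macrophage and dendritic cell genes held 3 higher and no lower calls: Vcam1, an adhesion molecule also found on stem cells and stroma (91.3, 49.5, 32.3 and 80.1 units, contrast 2.19), C1qb, a complement chain (1.12), and Lyz2, a lysozyme (1.04). None of the 3 reached 2-fold with normexp. Over all genes 2.86% were called, the share to set beside each list of this paragraph. The list's summed signal was 128148, 111126, 150625 and 105861 units, of which Siglech, a receptor of plasmacytoid dendritic cells, gave 117955, 103420, 131670 and 88652 units. Of 13 erythroid genes Car1 alone was called, lower, but another probe of Ermap gave -2.10 against -0.53 for the one used. With the mean of probes 2 erythroid genes were called lower. Both alpha-globin genes, Hba-a1 with Hba-a2, whose probes may not tell them apart, were higher in Sf3b1+/- cells in both settings. The beta-globin genes Hbb-bt (-0.85 and -0.33) and Hbb-b2 (-0.51 and -0.03) had differences below 0. Of 16 mast cell, basophil and eosinophil genes Fcer1a, the high-affinity IgE receptor, was called (159, 255, 1121 and 838 units, contrast -1.11), and of 9 class II MHC genes H2-Eb2 (-1.27). None of 11 endothelial and stromal genes was called, and Col1a1, a collagen of stroma, was above background on the native arrays only (132, 213, 13.4 and 12.2 units).

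The inducible heat shock genes Hspa1a, Hspb1 and Hsph1 stood below wild type in native Sf3b1+/- cells and above it after transplantation. Heat shock factors bind inverted repeats of a short GAA motif and switch on chaperone genes under stress. Among 31 immediate early and heat shock genes 5 had a contrast at least 2-fold higher and none lower, beside 2.0% and 0.854% of all genes. The list had medians of -0.28 and 0.14 and a median contrast of 0.38. In native cells 8 of the 31 were at least 1.5-fold lower in Sf3b1+/- cells, against 3.40% of all genes. Hspa1a, an inducible Hsp70, gave 8723, 5810, 16595 and 32223 units (differences -0.59 and 0.96, contrast 1.54). Its near-identical copy Hspa1b may be read by the same probe. Hspb1, a small heat shock protein, read 13186, 8530.5, 24551 and 45920 units (contrast 1.53), and Hsph1, an Hsp110 chaperone, 4811, 3379, 11850 and 19113 units (contrast 1.20). These are bright genes, and 29 of the 4059 brightest genes were called higher. Dnajb1, an Hsp40 co-chaperone, had a contrast of 0.63 and Hsp90aa1 one of 0.32.

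The sequences before the start of Hspa1a, Hspb1 and Hsph1 are shown, since these genes had contrasts of one direction and are textbook targets of heat shock factors. Each is 250 bases long, ends just before the gene start, is written 5′ to 3′ on the strand of the gene and comes from RefSeq on build GRCm38.p6. Capitals mark GAANNTTC or TTCNNGAA, which read the same on both strands, motifs chosen after the values had been seen.
Hspa1a, chr17:34972157-34972406, minus strand: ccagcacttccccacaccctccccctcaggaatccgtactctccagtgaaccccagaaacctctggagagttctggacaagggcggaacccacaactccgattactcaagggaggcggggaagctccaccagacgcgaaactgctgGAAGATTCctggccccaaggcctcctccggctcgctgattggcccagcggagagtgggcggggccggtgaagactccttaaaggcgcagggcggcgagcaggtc
Hspb1, chr5:135887669-135887918, plus strand: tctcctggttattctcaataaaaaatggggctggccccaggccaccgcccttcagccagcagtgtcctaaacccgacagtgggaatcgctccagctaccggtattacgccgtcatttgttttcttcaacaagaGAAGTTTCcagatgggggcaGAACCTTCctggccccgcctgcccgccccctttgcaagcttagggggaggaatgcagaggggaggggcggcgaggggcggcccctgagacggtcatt
Hsph1, chr5:149636337-149636586, minus strand: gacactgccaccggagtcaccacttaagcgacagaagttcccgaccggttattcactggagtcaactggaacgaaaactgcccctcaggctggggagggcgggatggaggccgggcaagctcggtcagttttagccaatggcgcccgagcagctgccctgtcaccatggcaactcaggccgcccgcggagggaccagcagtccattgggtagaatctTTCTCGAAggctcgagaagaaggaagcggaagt

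The motif GAAGATTC starts 104 bases before the gene start in Hspa1a. In Hspb1, GAAGTTTC and GAACCTTC start 117 and 97 bases before it, and in Hsph1 TTCTCGAA starts 33 bases before it. The window of Dnajb1 holds neither motif. A motif of this kind is found in 3 of these 4 genes and in 1016 (10.4%) of the 9792 compared genes with a promoter sequence, in 14.1% of the 184 higher and in 12.0% of the 83 lower genes with one. Of other short motifs searched on both strands, TATAAA, the core of the TATA box, was in 18.1% of the lower, 9.24% of the higher and 6.98% of all promoters. TGACTCA, the AP-1 site, was in 7.07% of the higher, 2.41% of the lower and 3.14% of all. Also searched were, in the same order, CACGTG (4.35%, 3.61% and 8.47%), CCAAT (29.3%, 28.9% and 36.6%), GGAAGT (20.1%, 18.1% and 23.8%) and AGATAA (4.89%, 10.8% and 6.33%). The last motif searched, TCACNCCAC, was in 1.09% of the higher, 0% of the lower and 0.899% of all promoters. CCAAT, too, was in 3 of the 4 heat shock gene promoters. The counts are small, 15 lower promoters with TATAAA and 13 higher ones with TGACTCA, and a match does not show that a factor was bound.

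The immediate early genes, whose products are rapidly induced transcription factors, did not all follow the heat shock genes. Fos (-0.19), Egr1 (0.35), Jun (0.33) and Nr4a1 (0.12) had small contrasts. Atf3, a stress-induced factor, gave 13135, 7799, 22304 and 24431 units, below wild type in the native pair only (differences -0.75 and 0.13, contrast 0.88). Jund (0.75) and Fosb (0.78) had the same form, with no difference beyond 0.09 in transplanted cells. Fosl2 read 3532, 1099.6, 2172 and 1601 units (contrast 1.24), although its other probe gave the opposite sign.

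**Figure D5:**
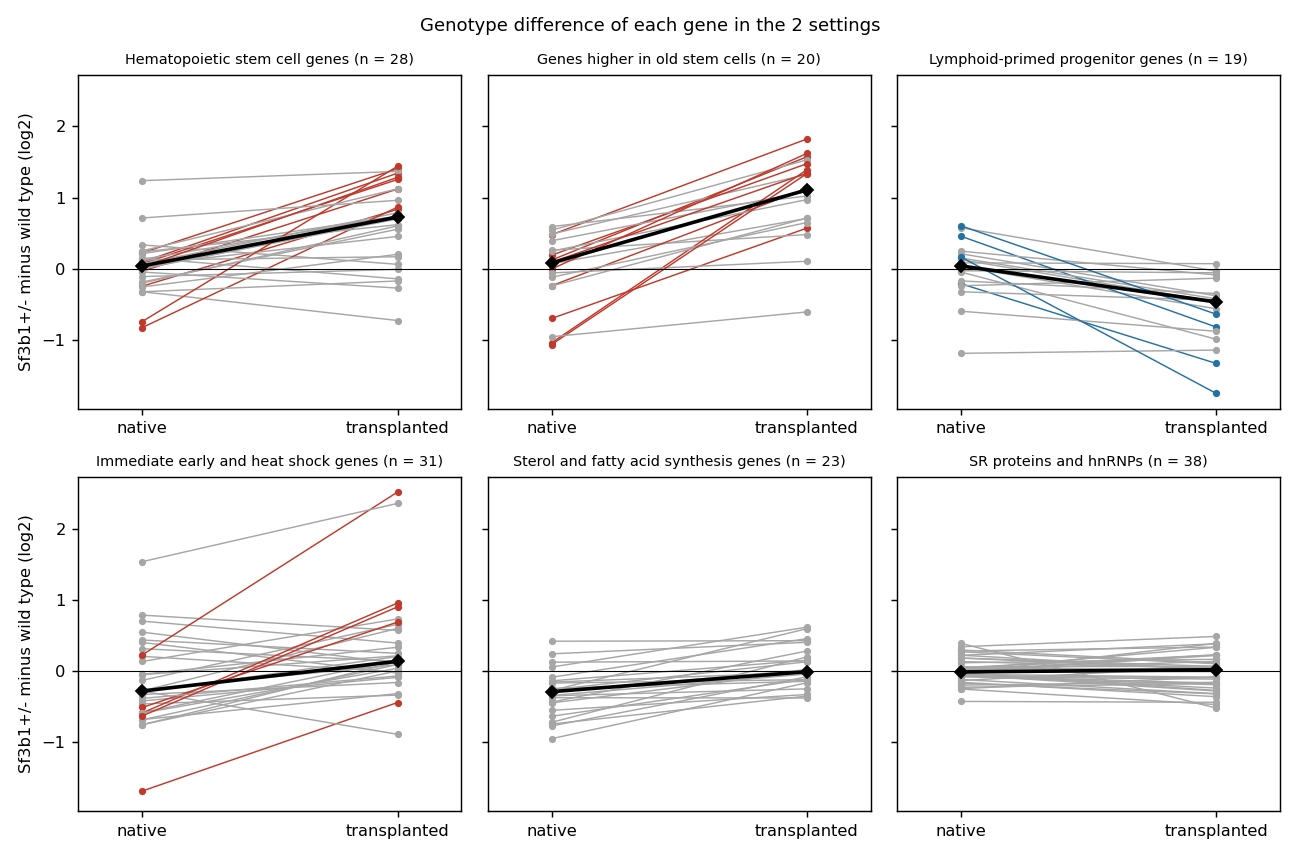
Genotype difference (Sf3b1+/- minus wild type, log2) of each measured gene of 6 lists in native and transplanted cells; a thin line is 1 gene, red where the contrast is at least 2-fold higher and blue where at least 2-fold lower, and the thick black line joins the medians. Most lines slope up in the panels of stem cell genes and of genes higher in old stem cells, most slope down in that of lymphoid-primed genes, and those of SR proteins and hnRNPs are nearly flat.

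Chac1, Trib3 and Cdkn1a, genes of other stress responses, were lower in Sf3b1+/- native cells and closer to wild type after transplantation, while Nupr1, Fas and Phlda3 were farther from it. Chac1, a glutathione-degrading enzyme induced by the integrated stress response, gave 707, 199, 704 and 467 units (contrast 1.24), and Trib3, a pseudokinase of the same response, 1201, 555, 1307.5 and 1327 units (contrast 1.13). In Trib3 the Sf3b1+/- native array was low and the other 3 alike. Their list held 22 measured genes, of which 3 were called higher with Nupr1, none lower, and 19 were above 0 (median contrast 0.34). Over all genes 2.0% were called higher, 0.854% lower, and 50.5% were above 0. The p53 targets had 21 of 23 genes above 0 and 2 called, Cdkn1a and Fas. Cdkn1a, the cell cycle inhibitor p21, read 4690, 2493, 4979 and 5504 units (contrast 1.06), and Fas, a death receptor, 46.0, 35.8, 40.0 and 64.5 units (contrast 1.05). Phlda3 (0.94) and the apoptosis gene Bbc3 (0.75) came next.

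Genes of sterol and fatty acid synthesis had small contrasts, nearly all in one direction. None of 23 reached 2-fold (2.86% of all genes did), yet 22 had a contrast above 0, against 50.5% of all genes. Median differences were -0.29 before and -0.01 after transplantation (median contrast 0.31). Msmo1, a methylsterol oxidase, gave 4041, 2095, 3373.5 and 3015 units (contrast 0.79). Lss, Mvd and Cyp51, other enzymes of sterol synthesis, had contrasts of 0.87, 0.72 and 0.69, while Fasn (0.01) and Acaca (0.05) of fatty acid synthesis had small contrasts. Of 29 interferon response genes 23 were above 0, beside the same 50.5% of all genes. Rsad2, which encodes viperin, was called (882, 444, 803 and 993 units, contrast 1.29). Their median contrast was 0.30. Oas3 (0.95) and Oas2 (0.81), sensors of double-stranded RNA, were next.

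Signalling and adhesion genes held single large contrasts rather than a common shift. Over all genes 2.86% were called, the share to set beside each list of this paragraph. Of 23 genes of TGF-beta and BMP signalling 3 were called higher and none lower. Id3, a dominant-negative helix-loop-helix protein, gave 801, 460, 1272 and 2156 units (differences -0.80 and 0.76, contrast 1.56). Tgfbi (1.00) was also called, while the receptor genes Tgfbr1 (0.27) and Tgfbr2 (-0.07) and Smad2, Smad3 and Smad4 (0.13, 0.25 and -0.05) had small contrasts. Of 21 homing and adhesion genes Vcam1 and Jam3 were called. Jam3, a junctional adhesion molecule, read 109.5, 68.8, 185 and 379 units (contrast 1.71). S1pr1, the receptor that guides egress from marrow, had differences of -1.03 and -0.27. Among 8 genes of adrenomedullin and other vasoactive receptors Ramp2 and Adm were called. Adm, which encodes adrenomedullin itself, gave 57.6, 30.4, 21.6 and 23.7 units (contrast 1.05), near background in transplanted cells, and Calcrl, the receptor that binds Ramp2, 128, 87.2, 106 and 55.2 units (contrast -0.39). Ramp2 was thus high on the array where Calcrl was lowest.

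Hox genes were divided by cluster. Of 12 measured, Hoxb6, Hoxb5 and Hoxb2 had contrasts at least 2-fold higher (2.15, 1.18 and 1.09), and Hoxb3 and Hoxb4 gave 0.86 and 0.64. The measured Hoxa genes lay between -0.37 for Hoxa6 and 0.31 for Hoxa10, with Hoxa9 at 0.23. The 3 called Hoxb genes were among the dimmest set, where 6.41% of genes were called. Hoxb5 gave 58.7, 68.5, 91.0 and 241 units and Hoxb2 120, 169, 191.5 and 574 units. Among 11 imprinted genes Plagl1 and Ndn were called, and Dlk1, a Notch-like surface protein, had differences of -0.58 and 0.39 (contrast 0.97). Hmox1, the heme oxygenase, was called among 31 antioxidant and heme genes (contrast 1.33), and Wnt5b among 18 Wnt and Notch genes (1.12). Of 25 glycolysis and hypoxia genes Adm alone was called, and of 6 inhibitors of cyclin-dependent kinases Cdkn1a alone. Over all genes 2.86% were called, so that 1 call among 31 or among 25 genes is near that share.

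No gene of the splicing, nonsense-mediated decay, S phase and mitosis lists reached 2-fold. The share over all genes was 2.86%, so that lists of this size may hold few calls or none. None of the 14 genes of SF3b and the U2 particle, of the 11 other splicing factors mutated in myeloid disease, of the 16 nonsense-mediated decay factors and of the 38 SR proteins and hnRNPs reached 2-fold. Their median contrasts were 0.05, -0.03, 0.07 and -0.03, and under spike-in scaling, where that of all genes was 0.38, they were 0.42, 0.34, 0.45 and 0.35. Within the U2 particle the contrasts lay between -0.43 for Sf3b6 and 0.34 for Sf3b4, and Sf3b3 was higher in Sf3b1+/- cells in both settings (0.48 and 0.44). Among the SR proteins and hnRNPs the contrast farthest from 0 was that of Hnrnph3, -0.91, from 31.8, 41.75, 51.8 and 36.2 units. None of 25 S phase and 27 mitotic genes was called, with median contrasts of -0.03 for each list, or 0.35 for each under spike-in scaling. The mitotic genes Kif2c (0.55) and Ttk (-0.63) were the ones farthest from 0.

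Genes that were not detected on all arrays give bounds only. A further 327 genes were well above background on the Sf3b1+/- transplanted array alone, 118 on the wild-type transplanted, 91 on the Sf3b1+/- native and 54 on the wild-type native array alone. The array with most such genes also had the largest share of spots above background, 51.5% against 47.7% to 50.2%, and its part in the count was not tested. For 36 of the 327 genes Sf3b1+/- transplanted cells were at least 2-fold above the wild-type limit, led by Tacr1, the substance P receptor (at least 4.39-fold), and C1qc, a complement chain (at least 4.21-fold). On the wild-type transplanted array 33 of 118 passed, led by Gpr20 (at least 4.37-fold) and Apobec2 (at least 4.14-fold). Sema3f, a secreted semaphorin, was detected on all but the wild-type transplanted array, with 39.7, 63.6, 17.3 and 212 units, and was at least 10.25-fold higher in Sf3b1+/- than in wild-type transplanted cells. Cd2, a T and NK cell adhesion receptor, and Spib, a B lineage and dendritic cell factor, were missing only from Sf3b1+/- native cells, at least 5.59-fold and 4.17-fold lower there. These lower limits use the higher of the dim probe's own signal and the lowest signal among detected probes, between 16.3 and 23.9 units.

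Under the scaling used here, probes named by genome position rather than by a gene leaned the other way from the genes. Of 16192 such probes 4163 were measured, 31 with a contrast at least 2-fold higher and 117 lower (3.56%). Their median contrast was -0.16, against 0.00 for all genes. Spike-in scaling raises every contrast by the same amount and put the median of all genes at 0.38, so the lean is one relative to the genes. Counts for these probes under that scaling, and their signal beside that of genes, are not reported here. The largest was a probe for the interval chr6:90915489-90940052 of build mm9, on the reverse strand, with 10580, 10848, 53382 and 6957 units, high on the wild-type transplanted array and lowest on the Sf3b1+/- transplanted one (contrast -2.98). What the interval encodes was not analysed here.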

How the data were processed

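Each of the 4 groups had 1 Agilent 1-colour array, labelled with Cy3 from 20 ng of RNA with spike-ins, per the labels. Per the file headers, the authors' scanner output was made with Feature Extraction 10.7.1.1 on array design 028005 under protocol GE1_107_Sep09, with probe positions on build mm9. The values used were the deposited intensity column of processed signal, which that software had corrected for background. The deposited series table holds a ratio per probe, which the comparison with the scanner values showed to be the processed signal over 1 constant per array. It served as an alternative.

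Spots marked as outliers and control spots were left out, spots of 1 probe were averaged, and each array was shifted by the 75th percentile of log2 signals over probes well above background on all 4 arrays. The probe with the highest mean log2 signal stood for a gene. A scaled signal adds back the mean of those percentiles. Symbols were updated through the RefSeq table of GRCm38.p6, used for names, neighbours and promoter sequences. A difference was called at 2-fold, with 1.5-fold as the lower limit of the classes. Named genes were the 6 largest in each direction of the appearing and vanishing classes, the 5 largest of the turning class, the 4 largest of each gene list and the 3 largest bounds of each detection pattern, with model genes left out and 1 sign required under other scalings. Other genes are named as members of lists or as examples, and some genes that the rule names are not reported here. Members and lists were chosen with earlier results of these data known. Alternatives were other scalings, quantile and cyclic loess normalization, normexp, other filters, other thresholds and the mean of probes. The normexp correction (offset 50, limma 3.58.1 in R 4.3.3) used the median spot and background signals, since the mean signal is not a column of the files used. The other steps ran in Python 3.11.15 with pandas 2.3.3 and numpy 2.4.6 and were tested on simulated data.

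The 4 arrays share 1 slide and 1 scan, so that position on the slide and group cannot be told apart. With 1 array per group the number of arrays limits the precision of every value.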

Additional observations from a re-analysis of the deposited data

Results flagged for a closer look

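For 46 genes the genotype difference was at least 1.5-fold in native and in transplanted LSK cells and had opposite signs. The difference between the settings was not tested for any of them, since each group had 1 array. Among those that went from lower to higher in Sf3b1+/- cells, the contrast was 2.87 for Evc2, 2.50 for Plagl1, 2.48 for Fkbp10, 2.43 for Plscr2 and 2.40 for Cyp26b1. Among those that went from higher to lower it was -2.43 for Slc15a2, -2.10 for Tnfrsf17, -2.02 for Tff1, -1.84 for H2bc23 and -1.78 for Col5a1. With normexp the contrasts of Evc2, Plagl1, Fkbp10, Plscr2 and Cyp26b1 were 2.42, 1.38, 1.65, 1.53 and 2.0. Those of Slc15a2, Tnfrsf17, Tff1, H2bc23 and Col5a1 were -1.56, -1.13, -0.89, -1.15 and -0.91. Of these 10 genes Cyp26b1 and Plagl1 also kept both genotype differences at 1.5-fold or more with normexp.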

How the results depend on the processing

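No paired analysis was possible because the groups share replicate number 1 alone, with 1 array each and no test. The main values were 244 genes higher, 104 lower, 124 appearing, 18 vanishing and 46 turning. Normexp gave 99, 31, 59, 6 and 8, and 50, 5 and 8 genes of the appearing, vanishing and turning classes were shared with the main ones. Spike-in scaling gave 726 higher, 28 lower and 480 appearing. Detection on at least 2 arrays gave 393, 219, 192, 88 and 106, and no filter 1161, 1040, 727, 435 and 437. A limit of 1.5-fold gave 820, 477, 525, 158 and 229. A limit of 3-fold gave 51 higher, 13 lower, 16 appearing and 4 vanishing. A signal of at least 100 units on all arrays, an alternative chosen after seeing the data, gave 98, 39, 57, 6 and 12. Spike-in scaling moves every contrast by the same amount, smaller than the contrast of any of the 34 genes named for the classes. That all of these kept their sign under it was therefore fixed in advance. Their sign with normexp was a condition for being named and so is no check. Of 152 genes named by the rule, 80 moved by more than the spot noise of 0.146 with normexp. With the mean of probes 12 did so, and with quantile normalization 1 (Igll1). Spike-in scaling moved all 152 by the same amount, which is larger than that noise. With the mean of probes Hmox1 was 0.96, Fosl2 0.33 and Tff1 -1.27. Apart from the constructions named (another filter or threshold), the cause was not tested. Signal over background limits dim genes most.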
